A study of Solanum virginianum with 24 samples.

Results

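XTH1, XTH3, XET2 and Xegip are 4 genes that act on xyloglucan or on the enzymes that cut it, and their transcripts were followed through the development of eggplant fruit. They were found by symbol in the annotation of the tomato GeneChip, as 4 of the 802 genes named there, and each had 1 of the 10209 probe sets in the table. The probe sets are Les.3590.1.S1_at for XTH1, Les.4353.1.S1_at for XTH3, Les.3697.1.S1_at for XET2 and Les.4026.1.S1_at for Xegip. The plant was the eggplant cultivar PPL, given as Solanum melongena in the title of the series and as Solanum virginianum in the sample records. Its fruit was harvested at flower opening, written here as 0 dpa for days post anthesis, and again 5, 10, 20 and 50 days later. All plants shared a glasshouse and hand pollination, no other treatment is named, and each of the 5 stages had 3 arrays that the labels call biological replicates. Each later stage was normalised together with the same 3 arrays of 0 dpa, so that 15 arrays fill 24 columns in 4 sets. Eggplant RNA was read on tomato probes, so a related family member could add to a signal, and the symbols are those of tomato.

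Xyloglucan is the hemicellulose that coats and tethers cellulose in the primary walls of fruit cells. Xyloglucan endotransglucosylase/hydrolases, abbreviated XTH and in older usage XET, cut a xyloglucan chain and rejoin it to another chain or to water, and so can loosen or rebuild the wall as cells grow and as fruit softens. XTH1, XTH3 and XET2 encode enzymes of that family. Xegip encodes a xyloglucan-specific endoglucanase inhibitor protein, which in tomato was described as a secreted inhibitor of a fungal endoglucanase that digests xyloglucan.

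The deposited values are log2 values centred per probe set within each set, so they carry differences between arrays and no signal level. Whether a transcript, or a marker of fruit, was present at all could not be read from them, and the levels of different genes cannot be ranked. Unless stated, values are log2 differences of an array from the average of the 3 arrays of 0 dpa in the same set. In whole fruit, fewer cells of a type and less RNA per cell cannot be told apart. Replicate 2 of 5 dpa stood apart, with 50 probe sets more than 1 log2 unit below both other arrays of its stage, against at most 3 on any other later array. The difference between the 5' and 3' probe sets of actin was higher than at 0 dpa by 1.09 ± 0.085 (SD, n = 3) at 5 dpa and by 0.37 to 0.52 at the other later stages. For GAPDH the same difference was 0.77 ± 0.063 at 5 dpa, 0.69 ± 0.14 at 10 dpa, 0.95 ± 0.18 at 20 dpa and 0.32 ± 0.14 at 50 dpa (SD, n = 3), so the controls do not rank the stages alike. Their part in the results was not tested.

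The 4 genes did not share a direction from 0 dpa, and at 5 dpa XTH1 and XET2 were already below it and XTH3 above it. XTH1 stood furthest below 0 dpa at 50 dpa, XET2 and Xegip furthest above it, and XTH3 was above it at every later stage. The genes were chosen with the differences from 0 dpa in view, so these differences are given as a description and without a test. Statements that arrays did or did not overlap are also description, and no share over all probe sets is given for them. In limma fits across 10101 probe sets with Benjamini-Hochberg adjustment at 0.05, 3 of the 4 passed at 5 dpa (32% of all probe sets), 4 at 10 dpa (35.3%), 3 at 20 dpa (37.9%) and 4 at 50 dpa (40%), and nothing is read from these counts.

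**Figure D1:**
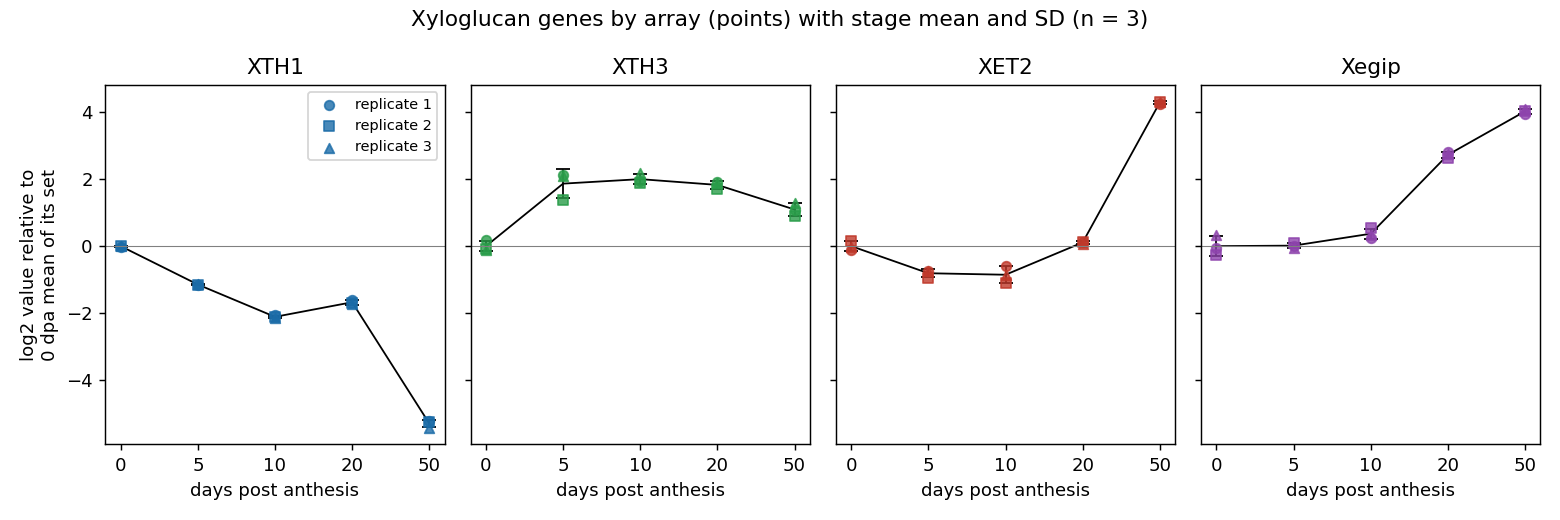
Each point is 1 array, placed by stage in days post anthesis and by its log2 difference from the average of 0 dpa in its set, with the stage mean and SD (n = 3) as a line and bars; 0 dpa points are averages over the 4 sets. XTH1 ends at -5.28, XTH3 holds near 2 until 20 dpa, XET2 climbs to 4.28 after 20 dpa and Xegip climbs from 10 dpa to 4.02.

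XTH1, the enzyme gene with the deepest fall, had values of -1.15, -1.16 and -1.12 in replicates 1 to 3 at 5 dpa. At 10 dpa they were -2.06, -2.11 and -2.14, at 20 dpa -1.59, -1.70 and -1.72, and at 50 dpa -5.20, -5.23 and -5.41. The arrays of 0 dpa lay between -0.054 and 0.067 in all 4 sets, so no later array overlapped them and the replicates were close together at every stage. The differences from 0 dpa, with the standard errors of the fit, were -1.14 ± 0.075, -2.11 ± 0.076, -1.67 ± 0.078 and -5.28 ± 0.086, the last being 38.9-fold lower.

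XTH3, another transferase gene, had values of 2.13, 1.37 and 2.08 at 5 dpa, where replicate 2 was the lowest. It had 1.93, 1.89 and 2.17 at 10 dpa, 1.90, 1.69 and 1.88 at 20 dpa, and 1.09, 0.91 and 1.28 at 50 dpa. All 12 later arrays stood above the 0 dpa arrays of their sets, which ranged from -0.44 to 0.40. The differences from 0 dpa were 1.86 ± 0.19 at 5 dpa, 2.00 ± 0.16 at 10 dpa, 1.82 ± 0.19 at 20 dpa and 1.09 ± 0.12 at 50 dpa. Without 5 dpa replicate 2 the first was 2.11.

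XET2 was below 0 dpa in young fruit, with values of -0.74, -0.95 and -0.73 at 5 dpa and of -0.59, -1.11 and -0.86 at 10 dpa. At 20 dpa the values were 0.12, 0.14 and 0.071, and at 50 dpa 4.24, 4.29 and 4.31. The 20 dpa arrays lay just above the 0 dpa arrays of their own set, which ranged from -0.043 to 0.025, while the 50 dpa arrays were far above every other array. The differences from 0 dpa were -0.81 ± 0.092, -0.85 ± 0.21, 0.11 ± 0.073 and 4.28 ± 0.10, the last being 19.4-fold higher.

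Xegip, the inhibitor gene, had values of 0.017, 0.086 and -0.058 at 5 dpa, which overlapped those of 0 dpa in that set. It had 0.25, 0.54 and 0.33 at 10 dpa, 2.80, 2.63 and 2.74 at 20 dpa, and 3.93, 4.04 and 4.08 at 50 dpa. The stages from 10 dpa on lay above 0 dpa without overlap in their sets. The differences from 0 dpa were 0.015 ± 0.083, 0.37 ± 0.11, 2.72 ± 0.29 and 4.02 ± 0.30, the last being 16.2-fold higher.

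The 3 arrays of 0 dpa did not keep the same spacing in every set. For Xegip they lay between -0.13 and 0.14 in the sets of 5 and 10 dpa, but between -0.65 and 0.75 in those of 20 and 50 dpa, with replicate 3 high and replicate 2 low. For XTH3, replicate 3 was at -0.44 in the set of 20 dpa and at 0.12 in that of 50 dpa, and for XET2 replicate 2 was at 0.46 in the set of 10 dpa and at 0.018 in that of 20 dpa. For XTH1 no value was further than 0.067 from the mean. These are the same hybridisations, normalised and summarised anew with each stage, and the 0 dpa mean links the sets in what follows.

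**Figure D2:**
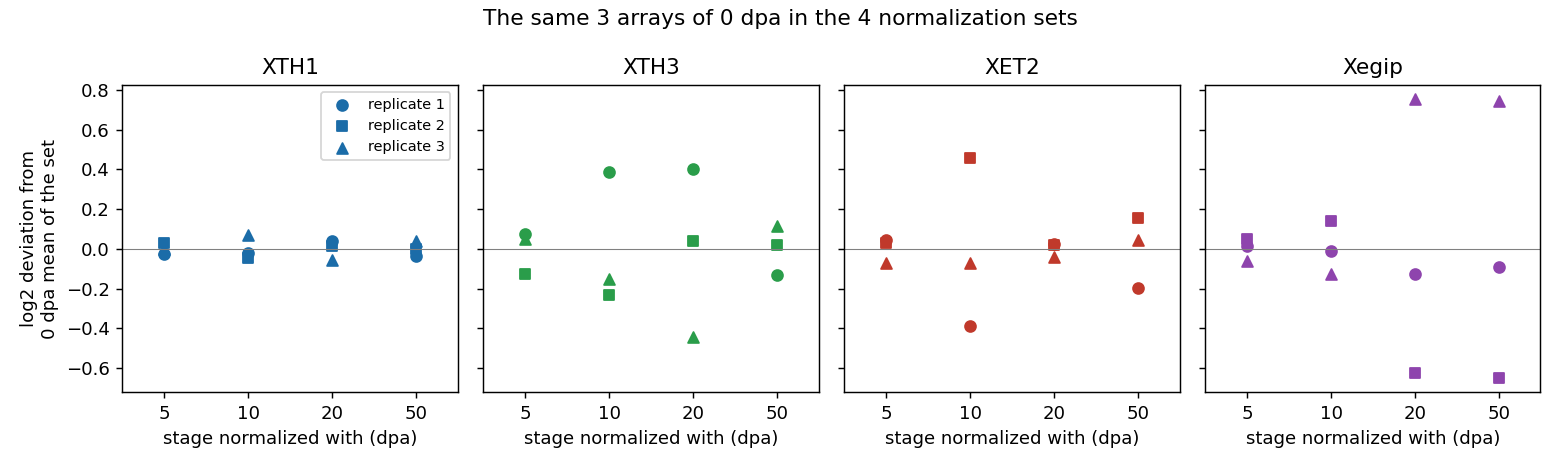
The 3 arrays of 0 dpa (marker shapes) in the 4 normalisation sets (x axis, the stage they were normalised with), as log2 deviations from the 0 dpa mean of the set (y axis). The points of XTH1 stay within 0.067 of 0 in every set, whereas those of Xegip spread from -0.65 to 0.75 in the sets of 20 and 50 dpa.

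The later stages were then compared with each other to ask when each gene changed. These 6 contrasts were not part of the rule that chose the genes, although they use the same later arrays. They are built from the differences from 0 dpa that were in view at that choice. Their p values and ranks are therefore not independent support. Each array was expressed as its difference from 0 dpa within its set, 12 arrays entered 1 limma fit, and the Benjamini-Hochberg adjustment ran over 10101 probe sets. Because the sets were normalised separately, each call was also examined in a fit of all 24 columns with the array as a random block, which lets the error of the 0 dpa means in. The standard errors and 95% intervals given are those of the 12-array fit and leave this error out. The labels call the arrays biological replicates without naming plants or harvests, so the p values measure the spread between these arrays.

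From 5 to 10 dpa XTH1 fell further, by 0.96 on the log2 scale (-0.96 ± 0.080, adjusted p = 4.97e-06), with all 3 arrays of 10 dpa below those of 5 dpa. Xegip was 1.28-fold higher at 10 dpa (0.35 ± 0.092, adjusted p = 0.0143), a call that ended in the 24-column fit (adjusted p = 0.646), in the methods' t-test with the same adjustment (0.102), and without 5 dpa replicate 3 (0.0529) or 10 dpa replicate 2 (0.0652), within a range over alternatives of 0.00731 to 0.646. XTH3 and XET2 did not pass, with differences of 0.13 (95% interval -0.25 to 0.51) and -0.045 (-0.29 to 0.20). The 2 genes that passed compare with 22.5% of all probe sets in this contrast.

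From 10 to 20 dpa Xegip and XET2 rose, and XTH1 rose slightly. Xegip rose 5.11-fold (log2 2.35 ± 0.092, adjusted p = 1.17e-09), the 30th largest rise among all probe sets. With single arrays left out, those of 0 dpa among them, this log2 rise ran from 1.97 to 2.79. XET2 rose 1.95-fold (0.96 ± 0.11, adjusted p = 2.66e-05) and thereby came back to within 0.11 of its 0 dpa value. XTH1 rose by 0.44 ± 0.080 (adjusted p = 0.000879), the single step in which it moved upward. XTH3 had a difference of -0.17 (95% interval -0.55 to 0.21) and did not pass. In this step 3 of the 4 genes were called, all higher, against 34.3% of all probe sets called in either direction and 17% called higher, and all 3 calls held in the 24-column fit (adjusted p = 0.000344, 0.00224 and 0.000432, against ranges over alternatives of 2.49e-10 to 0.00118, 5.03e-06 to 0.0185 and 0.000432 to 0.00754).

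From 20 to 50 dpa, the step to the last harvest, the genes moved in opposite directions. XET2 rose 18-fold (log2 4.17 ± 0.11, adjusted p = 2.44e-11), which was the 2nd largest rise among the 10101 probe sets. XTH1 fell 12.2-fold (-3.61 ± 0.080, adjusted p = 6.13e-12), the 21st deepest fall. Xegip rose 2.45-fold (1.29 ± 0.092, adjusted p = 1.4e-07), and its call held in the 24-column fit (adjusted p = 0.0338, the highest of a range that starts at 1.24e-07).

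XTH3 fell by 0.73 on the log2 scale (-0.73 ± 0.18, adjusted p = 0.00549) in the same step, with its 50 dpa arrays below all of its 20 dpa arrays. That call ended in the 24-column fit (adjusted p = 0.0728) and without 0 dpa replicate 3, where the difference was -0.45 (adjusted p = 0.0616), within a range over alternatives of 0.000257 to 0.0728. All 4 genes passed here, 2 higher and 2 lower, against 34.7% of all probe sets, of which 19.3% were higher and 15.5% lower.

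**Figure D3:**
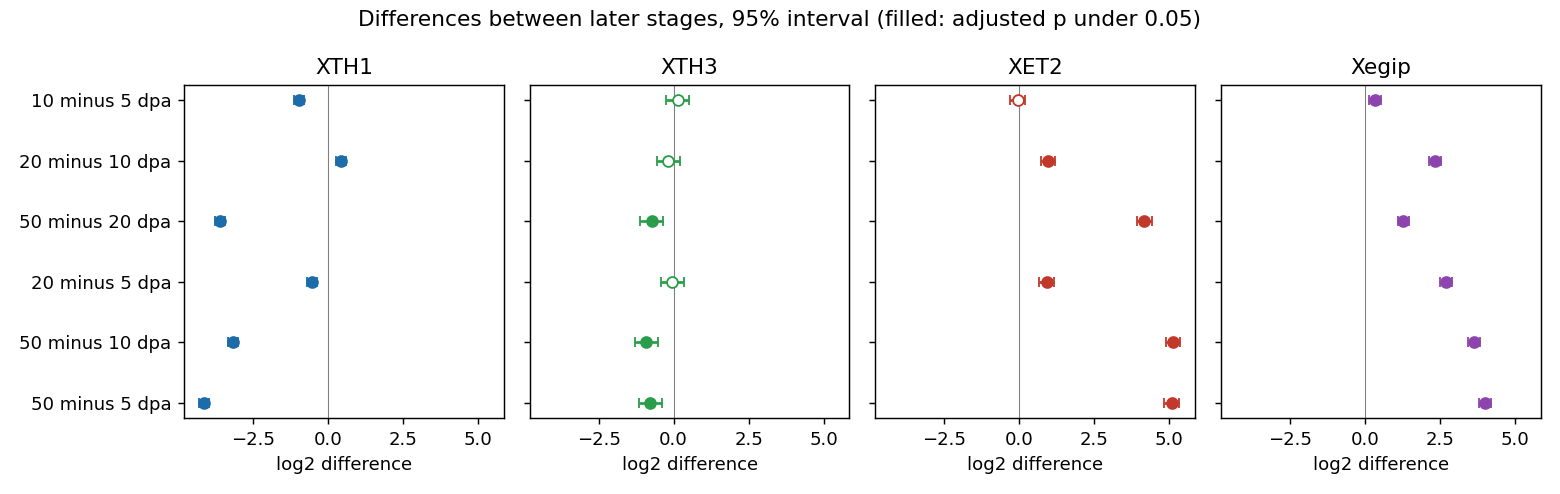
Log2 difference between later stages (x axis) for the 6 pairs of stages (y axis), with the 95% interval of the fit. The interval leaves out the error of the 0 dpa means. Filled points have an adjusted p under 0.05. For XTH3 the 3 pairs among 5, 10 and 20 dpa are open, and for XET2 the pair of 10 and 5 dpa is open.

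Set in order, the levels of XTH1 ran from 0 dpa through 5, 20 and 10 to 50 dpa, and the neighbours among the later stages all differed. For 20 against 5 dpa the difference was -0.53 ± 0.080 (adjusted p = 0.000185). For XTH3 the stages of 10, 5 and 20 dpa stood together at the top and were not told apart, the difference of 20 from 5 dpa being -0.039 (95% interval -0.42 to 0.34). XTH3 at 50 dpa was below 10 dpa (-0.90 ± 0.18, adjusted p = 0.000771) and below 5 dpa (-0.77 ± 0.18, adjusted p = 0.0025), the latter with an adjusted p of 0.1 in the methods' t-test (range over alternatives 2.67e-05 to 0.1). Without 5 dpa replicate 2, the array that stood apart, XTH3 was lower by 1.02 at 50 than at 5 dpa (-1.02), and its differences of 10 and 20 from 5 dpa were -0.11 and -0.29 and did not pass. The number of the 4 genes called was then the same in all 6 contrasts.

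XET2 was highest at 50 dpa, then at 20 and 0 dpa, and lowest at 5 and 10 dpa. The stages of 5 and 10 dpa were not told apart, and the order of 20 and 0 dpa is given without a test. XET2 rose by 5.09 ± 0.11 from 5 to 50 dpa (adjusted p = 9.59e-13) and by 0.92 ± 0.11 from 5 to 20 dpa (adjusted p = 3.94e-05). Xegip followed the order of age from 5 to 50 dpa and rose 16-fold between these ends (SE 0.092 in log2 units, adjusted p = 1.16e-12). From 10 to 50 dpa XTH1 fell by 3.18 (log2 -3.18 ± 0.080), XET2 rose by 5.13 ± 0.11 and Xegip by 3.65 ± 0.092. With single arrays left out, this rise of Xegip ran from 3.25 to 4.08. In the contrasts of 50 against 5, 50 against 10 and 20 against 5 dpa, 4, 4 and 3 of the genes were called, where 48.5%, 47% and 34.7% of all probe sets were.

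The array held 8 other xyloglucan transglucosylase genes, with 10 probe sets. From 10 to 20 dpa 3 probe sets rose and 3 fell, the latter all of the gene XTH16. In that step 34.3% of all probe sets were called, and 17% were called higher. The median difference of the 10 was 0.094 (all probe sets -0.0034), and in the methods' t-test 3 of the 10 passed. From 20 to 50 dpa 1 rose and 3 fell, of which 2 belong to XTH16, against 19.3% of all probe sets higher and 15.5% lower. The median of the 10 probe sets was -0.059 (all probe sets 0.050). Nothing is read from these counts. From 5 to 10 dpa the differences of the 10 probe sets lay between -0.28 and 0.61.

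XTH16 fell from 20 to 50 dpa on 2 of its 3 probe sets, by 2.55 (-2.55 ± 0.085, adjusted p = 1.01e-10) and 1.90 (-1.90 ± 0.086), while the remaining one, of a type shared between transcripts, was at -0.15 ± 0.18 (adjusted p = 0.561). BR1, a transferase gene named for its response to brassinosteroids, rose by 0.52 ± 0.086 from 10 to 20 dpa and by 0.56 ± 0.086 from 20 to 50 dpa. XET2 stood above each of these 10 probe sets in the step to 50 dpa, where the highest of them was at 0.56.

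The other wall genes were counted in the step from 20 to 50 dpa, in which 15.5% of all probe sets fell and 19.3% rose. Of 6 endo-beta-1,4-glucanase probe sets, for enzymes that cut glucan backbones, 5 fell, with a median of -0.65, and 3 passed in the methods' t-test. Cel1 fell by 1.70 (-1.70 ± 0.098, adjusted p = 1.74e-08) and cel5 by 0.44 (-0.44 ± 0.13, adjusted p = 0.018), both named for their falls of 4.06 and 3.53 from 5 to 50 dpa (log2 -4.06 and -3.53). CEL8, picked after its value was seen, had the deepest fall of this group from 20 to 50 dpa (-3.10 ± 0.086, adjusted p = 2.44e-11). Of 13 expansin probe sets, for proteins that loosen walls without cutting them, 7 fell, with a median of -0.47, among them EXPA4 (-2.23 ± 0.095) and EXP5 (-1.27 ± 0.081).

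Of 7 beta-galactosidase genes, whose products trim galactose from wall polymers, 5 fell and 1 rose, with a median of -0.89. TBG1 (-1.25 ± 0.12) and TBG7 (-0.89 ± 0.15) were among those that fell, and TBG3 (-1.81 ± 0.14) and TBG4 (-1.45 ± 0.14), picked after their values were seen, fell further in this step. Of 10 pectin, mannan and xylan enzymes 3 fell and 1 rose, with a median of -0.16, and 2 passed in the methods' t-test. MAN2, an endo-beta-mannanase gene, fell by 3.78 (-3.78 ± 0.15) and PMEU1, a pectin methylesterase gene, by 1.56 (-1.56 ± 0.14).

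**Figure D4:**
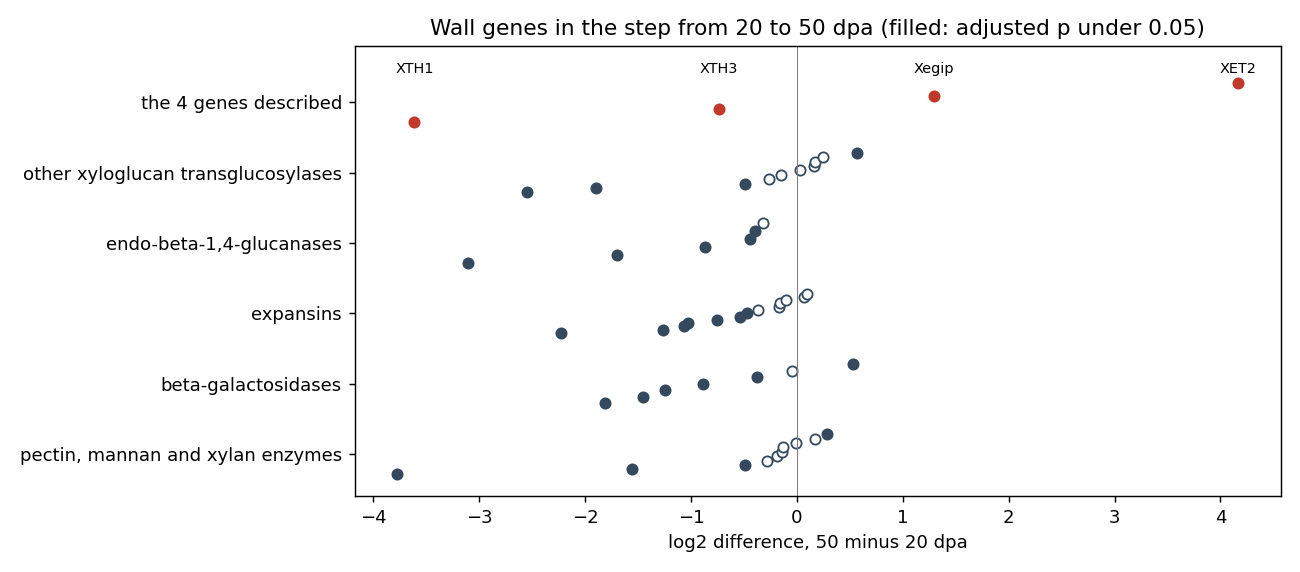
Log2 difference of 50 minus 20 dpa (x axis) for the 4 genes described and for the probe sets of 5 groups of wall genes (y axis; spread vertically for legibility); filled points have an adjusted p under 0.05. XET2 at 4.17 and Xegip at 1.29 lie to the right of every probe set of the 5 groups, whose highest is 0.56.

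Markers of other material were set beside these steps. Of all probe sets, limma called 22.5% from 5 to 10 dpa, 34.3% from 10 to 20 dpa and 34.7% from 20 to 50 dpa. Called higher were 17% from 10 to 20 dpa and 19.3% from 20 to 50 dpa. The 5 pollen and anther probe sets had differences of -0.076 to 0.19 from 20 to 50 dpa, and limma called 0 of them. Before adjustment 0 had a p under 0.05, and the methods' t-test called 0. From 5 to 10 and from 10 to 20 dpa limma also called 0 of the 5, with 0 at an unadjusted p under 0.05. LEA14 was the single probe set matched by symbol to the seed maturation list, and whether it marks seed content was not tested. It rose by 0.38 ± 0.079 from 5 to 10 dpa and fell by 0.52 (-0.52 ± 0.079) from 10 to 20 dpa. From 20 to 50 dpa it rose by 0.72 ± 0.079. The 6 photosynthesis probe sets all rose from 5 to 10 dpa (median 0.94) and all fell from 10 to 20 dpa (median -0.56), and 5 of them fell from 20 to 50 dpa (median -0.70). Of 7 fruit markers 1 rose in each of the first 2 steps and 3 rose from 20 to 50 dpa, where the methods' t-test called 1. These 3 were RIN, a MADS-box regulator of ripening in tomato (1.31 ± 0.14), fsm1 (1.15 ± 0.27) and 2A11 (0.84 ± 0.18). At 50 dpa fsm1 was still below 0 dpa (-1.97 ± 0.18). The remaining fruit markers did not pass from 20 to 50 dpa: E8 (-0.0041), PG2 (0.18), TAGL1 (0.099) and TDR4 (0.079). The part of a changing tissue or seed content in the values of the 4 genes was not tested.

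To show which transcripts ran most alike, each gene was set against all other probe sets by the root mean square difference over its 4 differences from 0 dpa. All profiles share the 0 dpa arrays and the normalisation. The nearest named genes to XTH1 were the expansin gene EXPA4 (0.75 log2 units), the endoglucanase gene Cel1 (0.88) and LEJA1 (0.98). EXPA4 ended at -4.66 against 0 dpa, and its mean at 20 dpa (-2.43) lay below its mean at 10 dpa, whereas that of XTH1 lay above.

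XTH3 lay nearest to POR2 (0.31), a chlorophyll synthesis gene, and to PSBR (0.60) and PSBO (0.62), which encode photosystem II subunits. POR2 had differences of 1.38, 2.24, 1.62 and 1.29 at the 4 later stages. The nearest to XET2 were TomloxE (0.80), a lipoxygenase gene, CrtR-b1 (1.15), a carotene hydroxylase gene, and CHS1 (1.15), a chalcone synthase gene, none of which reached its value at 50 dpa, the highest being TomloxE at 3.06. Xegip had HSP17-6 (0.88), a small heat shock protein gene, ME2 (1.05) and CrtR-b1 (1.26) as its nearest. Probe sets without a symbol lay closer than these, at 0.59 for XTH1, 0.28 for XTH3, 0.42 for XET2 and 0.61 for Xegip. Genes named only by a LOC number were not considered. Among all other probe sets the named genes ranked 2nd to 6th for XTH1 and 2nd to 34th for XTH3. They ranked 4th to 27th for XET2 and 12th to 41st for Xegip.

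**Figure D5:**
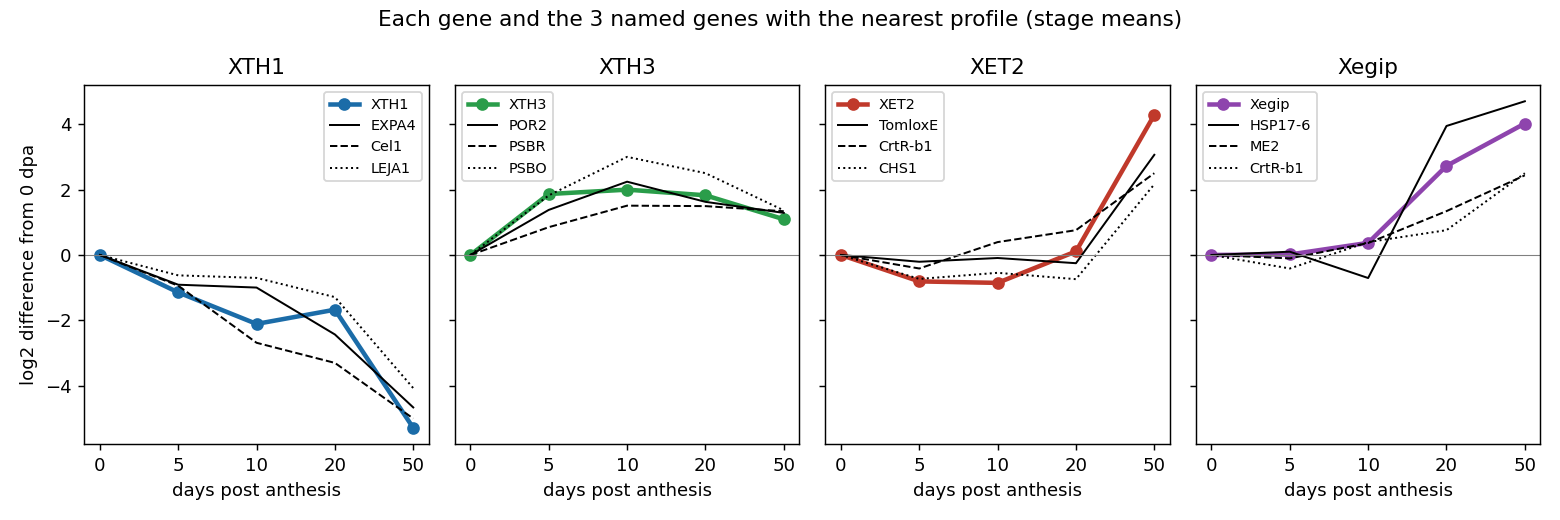
Log2 difference from 0 dpa (y axis) by days post anthesis (x axis) for each gene (coloured) and its 3 nearest named genes (black lines), as stage means. POR2 differs from XTH3 by a root mean square of 0.31 log2 units, whereas none of the 3 genes drawn beside XET2 reaches its 4.28 at 50 dpa.

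The same measure was taken between the 4 genes, as a description of profiles they were chosen with. The closest pair, XET2 and Xegip, differed by 1.51 log2 units, and the widest, XTH1 and Xegip, by 5.32. XTH1 and XTH3, of the same enzyme family, differed by 4.44.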

How the data were processed

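The deposited log2 values were made by the authors with RMA in GeneSpring, which corrects background, normalises by quantiles and summarises by median polish, per the design text of the series. The submitters' processing notes name RMA without a version. In each set of 6 columns every probe set had a median within 1e-05 of 0. A positive value was read as higher expression, without a check on raw scans. The 108 control probe sets whose names start with AFFX were left out, and 10101 were tested with limma 3.58.1 in R 4.3.3. Standard errors after ± are those of the fit unless SD is named. Symbols come from the platform annotation, which names 909 probe sets. The methods were also run on simulated data in which the 0 dpa arrays kept the same spacing in every set. That run could not check how the changing spacing of the real 0 dpa arrays affects comparisons between sets. Replicate numbers were not used to pair the arrays in the main fits. Correlations of deviations ran from -0.031 to 0.10 between same-numbered arrays and from -0.11 to 0.061 between different-numbered arrays. The members, the wall and marker lists and the tests were chosen with earlier results of these data known. Named genes were all members, the 3 nearest named probe sets, and per wall list the 2 genes with the largest called change between later stages. CEL8, TBG3, TBG4, LEA14 and the fruit markers are named outside that rule, after their values were seen. The number of arrays limits the precision. Sequences and genome positions are not given here.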

Additional observations from a re-analysis of the deposited data

Results flagged for a closer look

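XET2 is listed here because its arrays lay on opposite sides of 0 dpa at different stages, all 3 below at 5 and at 10 dpa and all 3 above at 20 and at 50 dpa, and because the tests of these differences passed. The differences were 0.92 for 20 minus 5 dpa, 0.96 for 20 minus 10 dpa, 5.09 for 50 minus 5 dpa and 5.13 for 50 minus 10 dpa, in log2 units. At 20 dpa the distance to 0 dpa was 0.11 ± 0.073, which is given as a description and without a test. A position of XET2 above 0 dpa at 20 dpa is therefore not established. Differences between stages that lay on the same side of 0 dpa are given in the report and are not repeated.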

How the results depend on the processing

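Depth plays no part in these arrays and no filter on dim probes was possible, since the values hold no signal level. In the methods' t-test 2113 probe sets passed at 5 against 0 dpa and 1045 at 10 against 5 dpa, compared with 3230 and 2269 in limma, and 1 of the 4 genes passed at 10 against 5 dpa in place of 2, as in the 24-column fit. Leaving out single arrays gave 1 to 2 genes for that contrast. It turned the direction of 4 differences of these genes that were not called, which ranged from -0.020 to 0.051 for Xegip at 5 against 0 dpa, from -0.11 to 0.29 for XTH3 and from -0.26 to 0.17 for XET2 at 10 against 5 dpa, and from -0.29 to 0.12 for XTH3 at 20 against 5 dpa. The cause was not tested. Without 5 dpa replicate 2 the fall of XTH3 from 5 to 50 dpa was -1.02. The replicate block changed no call among the 4 genes and left 2 called at 10 against 5 dpa. Centring columns on their medians, keeping control probe sets and fitting only the 6 arrays of a pair kept the direction and the call of each of the 4 genes in all 6 contrasts.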
